A study of Sus scrofa with 6 samples.

Results

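Interferon-stimulated genes were compared between uterine horns that held embryos and uterine horns of the same sows that held oocytes. They are genes whose transcription rises when a cell senses an interferon, and 43 of them were listed by symbol. The porcine array names 25 of the 43 on probe sets that carry 1 gene symbol, out of 6765 genes so named. These 25 genes have 38 of the 23999 probe sets tested, and the brightest probe set of a gene stands for it unless another is mentioned. Of the others, 17 (IFIT5, IFI6, IFI44, OAS2, OASL, IFIH1, GBP5, CXCL10, UBA7, BST2, TRIM21, TRIM25, HERC5, HERC6, CMPK2, SAMD9 and IFITM1) are on no probe set under these symbols, and IFITM3 is only on probe sets that carry a second gene symbol as well. None of these 18 was analysed here.

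Crossbred sows were inseminated in 1 oviduct by laparoscopy, and the other oviduct received the semen diluent without spermatozoa. At day 6 the embryo group (n = 3 horns) held blastocysts and the oocyte group (n = 3 horns) held unfertilized oocytes, so both groups had the same surgery, the same mother and the same day of the cycle. Cells were scraped from the mucosa near the junction with the oviduct, and the RNA of each horn was hybridised to 1 array. The comparison asks whether the presence of an embryo, rather than an oocyte, goes with another level of these transcripts in the horn that holds it.

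Interferons bind receptors on the cell surface, and the kinases JAK1 and TYK2 at the receptor then phosphorylate STAT proteins. STAT2, bound to IRF9, enters the nucleus and switches on genes whose products cut or bind viral RNA, block protein synthesis, tag proteins with ISG15 or dampen the signal again. In ruminants the conceptus announces itself to the mother with interferon tau, and the pig conceptus secretes other interferons later, as it elongates and attaches. Interferon-stimulated genes in the uterus are therefore a known readout of a conceptus in these species.

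Signals were deposited in arbitrary units per probe set, with medians of 30.6 to 35.8 on the 6 arrays. Of the markers of epithelium 7 of 8 lay above the median signal (EPCAM 2014 to 2296 with embryos and 2160 to 2328 with oocytes, with MUC1 below it), and so did 5 of 6 markers of stroma (VIM 1256 to 2266 with embryos and 1209 to 2670 with oocytes, with COL3A1 below it). The scraped material was thus not epithelium alone, and fewer cells of a type cannot be told apart from less RNA per cell. The 5'/3' signal ratio of GAPDH, which falls as RNA is degraded or copied incompletely, was 0.243, 0.130 and 0.199 with embryos and 0.355, 0.200 and 0.226 with oocytes in sows 1, 2 and 3. It was lower with embryos in each of the 3 sows, and its part in the results below was not tested beyond the fits that include it.

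None of the 25 interferon-stimulated genes passed the test between embryo and oocyte horns. At an adjusted p under 0.05 (limma with Benjamini-Hochberg adjustment over all 23999 probe sets) 0 members passed, where 0% of all probe sets did. At an unadjusted p under 0.05 there were 0 members against 2.88% of all probe sets (1.3% higher and 1.59% lower with embryos). With the sow as a block the unadjusted count was 1 of 25, IFIT2, which was higher with embryos, against 8.70% of all probe sets (3.75% higher and 4.95% lower). Again 0 passed after adjustment. The median log2 fold change of the 25 genes, embryos minus oocytes, was 0.05, against 0.01 over all probe sets, and within sows 1, 2 and 3 the medians were 0.00, -0.00 and 0.09. With the log2 5'/3' ratio as a covariate the median was 0.25, and 0 members passed. By the fit 18 of 25 were higher with embryos (72%, against 50.8% of all probe sets). This count was 10 without the embryo array of sow 1 and 5 without the oocyte array of sow 3. It was 14 to 22 without any 1 of the others. These fits have no term for the sow, so a sow that lost 1 array counted in 1 group only. A shift of this kind cannot be told apart from the differences between sows. With the mean over a gene's probe sets in place of the brightest, 15 of 25 were higher with embryos, and IFIT2, IRF7 and GBP1 changed sign. Single genes ran between -0.62 (ISG20) and 0.26 (IFIT2). The median size of the log2 fold change, whatever its sign, was 0.07 for the members, 0.20 over all probe sets and 0.11 over those above the median signal, where 22 of the 25 members lie. Embryo and oocyte horns did not overlap in 1 member, ISG20 (4%), against 8.01% of all probe sets. The signal was higher with embryos in all 3 sows for 5 members, DTX3L, IFIT2, IFIT3, IRF1 and ISG15 (20%, against 14.9% of all probe sets), and lower in all 3 for 1 member, ISG20 (4%, against 14.8%).

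Between sows, by contrast, 11 of these genes differed, and mostly alike in both horns of a sow. In the limma F test of the sow, beside the group, 11 of the 25 members passed at an adjusted p under 0.05 (44%), against 11.3% of all probe sets and 20.8% of the probe sets above the median signal. Those 11 were ISG15, OAS1, MX1, RSAD2, DDX58, USP18, EIF2AK2, IFIT1, IFIT2, IFIT3 and WARS. Sow 1 was highest in 10 of them (40% of the members, against 5.08% of all probe sets and 9.47% of those above the median signal), and sow 2 in IFIT2. Both horns of sow 3 lay below the other 4 horns in 11 members (44%, against 8.27% of all and 9.49% of those above the median signal), and in 0 members did they lie above them (against 8.73% and 9.82%). The 3 sows had the same order in embryo and oocyte horns in 11 members (44%, against 30.3% of all probe sets), which is near the 38.8% of those above the median signal. The ranking sow 1, sow 2, sow 3 held without overlap in 7 members (28%, against 2.23% and 3.11%), namely ISG15, MX1, RSAD2, DDX58, USP18, IFIT1 and IFIT3. It was the only full ranking counted without overlap, and it was not set in advance. The sow accounted for a median of 88.3% of the variance of a member's normalized log2 signal and the group for 2.02%, against 54.1% and 9.72% over all probe sets and 66.3% and 7.95% over those above the median signal. These calls rest on variances moderated with a trend on the signal. Without the trend 0 of 25 members, and 0 of 23999 probe sets, passed after adjustment, with 10 members at an unadjusted p under 0.05. Without the embryo array of sow 1, 8 members passed (IFIT1, IFIT3 and WARS did not), and without its oocyte array 9 passed.

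**Figure D1:**
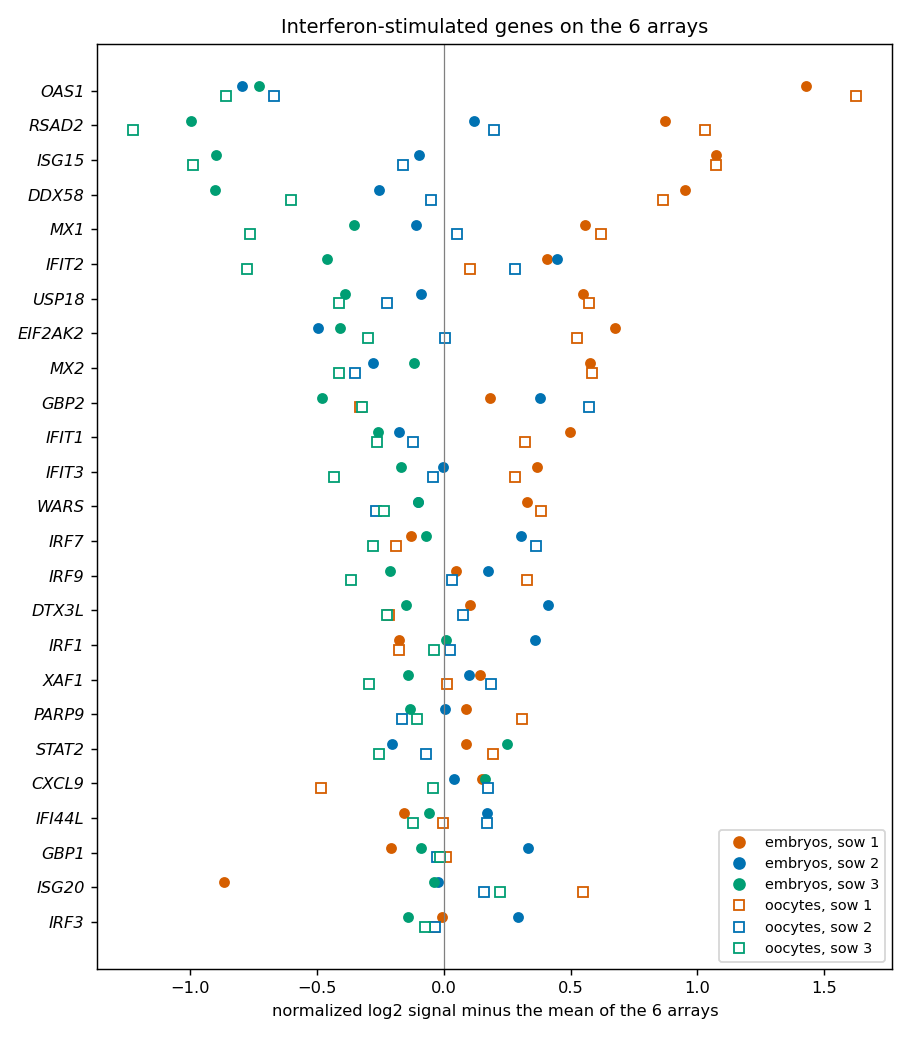
Normalized log2 signal of the 25 interferon-stimulated genes on each of the 6 arrays, as the deviation from the gene's mean over the arrays, with embryo horns as filled circles, oocyte horns as open squares and sows by colour. In the upper rows both horns of sow 1 stand to the right, except for IFIT2 and GBP2, where sow 2 is highest. OAS1 spans 5.00-fold between sows, and circles and squares of the same sow mostly lie close together.

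ISG15 encodes a ubiquitin-like protein that is attached to other proteins after interferon. The ISG15 signal was 719, 330.4 and 188 in the embryo horns of sows 1, 2 and 3, against 713, 314 and 178 in their oocyte horns. The signals of sow 1 were highest and those of sow 3 lowest in either group, so the groups overlapped, while the embryo horn of each sow was at or slightly above its oocyte horn. Embryos differed from oocytes by 0.05 on the log2 scale (SE 0.58, unadjusted p = 0.931 from limma). Blocking on the sow gave an SE of 0.080 and a 95% interval of -0.13 to 0.23. Between sows ISG15 spanned 4.05-fold (adjusted p = 1.02e-05, limma F test), and the sow held 99.8% of its variance.

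USP18 removes ISG15 from its targets and damps signalling at the interferon receptor. Signals of USP18 were 347, 229 and 185 with embryos, against 349.9, 208 and 183 with oocytes in sows 1, 2 and 3. Sow 1 was again highest and sow 3 lowest, and the 2 horns of a sow differed little. The log2 fold change was 0.04 (95% interval -0.15 to 0.24 with the sow as a block, unadjusted p = 0.637 from limma). The sows spanned 1.95-fold (adjusted p = 0.00105).

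Among the effectors that act on viral RNA, OAS1 makes the short oligoadenylates that activate RNase L. The OAS1 signal was 1372, 305 and 315 in the embryo horns of sows 1, 2 and 3, against 1563, 330.3 and 290.1 in their oocyte horns. Both horns of sow 1 stood far above the other 4, which overlapped each other, and embryo and oocyte horns overlapped. The log2 fold change was -0.06 (SE 0.75, unadjusted p = 0.934 from limma), with a 95% interval of -0.26 to 0.13 once the sow was a block. OAS1 had the largest span between sows of the 25 members, 5.00-fold (adjusted p = 3.55e-06).

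EIF2AK2 (PKR) is the kinase that halts translation when it binds double-stranded RNA. With embryos, EIF2AK2 had signals of 747, 345 and 361 in sows 1, 2 and 3, against 668.5, 485.5 and 394 with oocytes. Sow 1 was highest in both groups, and the embryo horn was below the oocyte horn in sows 2 and 3 and above it in sow 1, with overlap of the groups. The fitted difference was -0.16 (95% interval -0.41 to 0.10 with the block, unadjusted p = 0.201 from limma), and the sows spanned 1.94-fold (adjusted p = 0.00316).

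DDX58 (RIG-I) is the cytosolic sensor of viral RNA that is itself induced by interferon. Signals of DDX58 were 373, 164 and 105 with embryos, against 348, 189 and 129.8 with oocytes in sows 1, 2 and 3. The sows kept the order 1, 2, 3 in both groups, and the groups overlapped. The embryo horn was above the oocyte horn in sow 1 and below it in sows 2 and 3, with a log2 fold change of -0.14 (95% interval -0.38 to 0.10 with the block, unadjusted p = 0.217 from limma). The span between sows was 3.16-fold (adjusted p = 1.68e-04), and a second, dimmer DDX58 probe set also passed the test of the sow (adjusted p = 0.00419), with sow 1 highest in both horns.

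**Figure D2:**
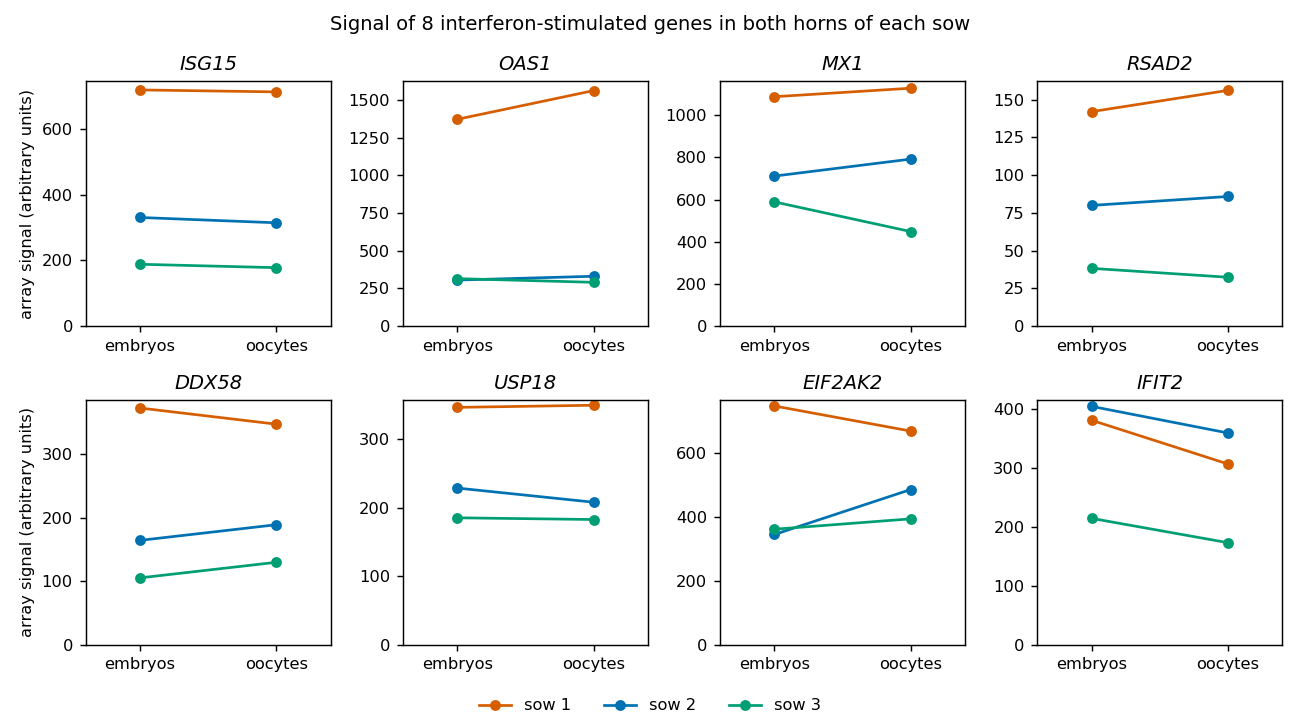
Deposited signal, in arbitrary units on axes that start at 0, of ISG15, OAS1, MX1, RSAD2, DDX58, USP18, EIF2AK2 and IFIT2, with embryo horns on the left, oocyte horns on the right and a line joining the 2 horns of each sow. For ISG15 the lines run nearly flat at 719 and 713, 330.4 and 314, and 188 and 178, so the distance between sows is far larger than the distance between horns.

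MX1 and MX2, neighbours in the pig genome with 0 protein-coding genes between them, encode dynamin-like GTPases that trap viral components. The MX1 signal was 1088, 711 and 589 in the embryo horns of sows 1, 2 and 3, against 1128, 792 and 448 in their oocyte horns. The order of the sows was 1, 2, 3 in either group, with overlap of the groups, and only sow 3 had the higher signal with embryos. The log2 fold change was 0.06 (95% interval -0.18 to 0.30 with the block), and the sows spanned 2.22-fold (adjusted p = 0.00131). Signals of MX2 were 51.1, 24.6 and 29.5 with embryos, against 49.9, 24.2 and 23.5 with oocytes in sows 1, 2 and 3. Both horns of sow 1 were above the other 4 for MX2 too, but the test of the sow did not pass after adjustment (unadjusted p = 0.0175, adjusted p = 0.104). The fitted difference between horns was 0.12 (unadjusted p = 0.753 from limma without the block and 0.618 with it). A dimmer MX2 probe set, far below the array medians, had 8.3, 0.8 and 15.5 with embryos, against 7.4, 1.3 and 7.9 with oocytes. There sow 3 was highest and sow 2 lowest in both groups, and the test of the sow passed (adjusted p = 0.0496).

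RSAD2 (viperin) makes a chain-terminating nucleotide that stops viral polymerases. With embryos, RSAD2 had signals of 142, 79.9 and 38.2 in sows 1, 2 and 3, against 156, 85.8 and 32.3 with oocytes. The sows were ordered 1, 2, 3 without overlap, and the groups overlapped. Embryos and oocytes differed by -0.00 on the log2 scale (95% interval -0.33 to 0.32 with the block), while the sows spanned 4.18-fold (adjusted p = 2.92e-04). The array also carries RSAD2 control probe sets at the 3' end, the middle and the 5' end of the transcript, which were not tested. Their signals in sow 1 were 27.5, 11.2 and 24.7 with embryos and 32.7, 10.8 and 21.7 with oocytes. In sows 2 and 3 they did not exceed 10.4 with embryos or 13.1 with oocytes. At each of the 3 positions sow 1 was thus highest in both groups.

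The IFIT proteins bind viral RNA that lacks the host's cap modifications, and IFIT1, IFIT2 and IFIT3 lie close together in the pig genome. The IFIT2 signal was 381, 404 and 214 in the embryo horns of sows 1, 2 and 3, against 306, 359 and 173 in their oocyte horns. Sow 3 was lowest in both groups, and within each sow the embryo horn was above the oocyte horn, although the groups overlapped. IFIT2 was the member with the largest positive log2 fold change, 0.26 (SE 0.32, unadjusted p = 0.442 from limma). Blocking on the sow gave an SE of 0.085, a 95% interval of 0.07 to 0.45 and an unadjusted p of 0.0122, which did not pass after adjustment (adjusted p = 0.451).

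The other 2 IFIT2 probe sets did not share this direction. One had 320.1, 475.5 and 159 with embryos, against 354, 438.5 and 164 with oocytes, and a log2 fold change of -0.03 (95% interval -0.23 to 0.17 with the block). The other had 196.5, 87.9 and 65.3 with embryos, against 310.2, 137 and 58.2 with oocytes, and a log2 fold change of -0.38 (95% interval -0.75 to -0.02). So the 3 IFIT2 probe sets gave a higher, a similar and a lower level with embryos, and the mean over them changed the sign of the IFIT2 difference. All 3 had sow 3 lowest in both groups, and all 3 passed the test of the sow, by 1.98-fold, 2.82-fold and 4.04-fold.

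Signals of IFIT1 were 369, 238 and 223 with embryos, against 323, 246 and 224 with oocytes in sows 1, 2 and 3. For IFIT1 sow 1 was highest in both groups, sow 2 followed and sow 3 was lowest. The log2 fold change was 0.04 (unadjusted p = 0.862 from limma without the block and 0.652 with it), and the sows spanned 1.59-fold (adjusted p = 0.00658). A dimmer IFIT1 probe set had 219, 182 and 122 with embryos, against 159, 118.5 and 110.6 with oocytes. It was higher with embryos in all 3 sows (log2 fold change 0.40, 95% interval 0.14 to 0.67 with the block, unadjusted p = 0.00732), which the brightest probe set did not show. The third IFIT1 probe set had a log2 fold change of 0.42 (unadjusted p = 0.124 with the block) and did not pass the test of the sow (adjusted p = 0.453), and the mean over the 3 was 0.29. With embryos, IFIT3 had signals of 422, 338 and 299 in sows 1, 2 and 3, against 394, 327 and 250.3 with oocytes. IFIT3 had the order 1, 2, 3 and was higher with embryos in each sow, by 0.13 on the log2 scale (95% interval -0.06 to 0.32 with the block), with overlap of the groups. Its sows spanned 1.54-fold (adjusted p = 0.0105).

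**Figure D3:**
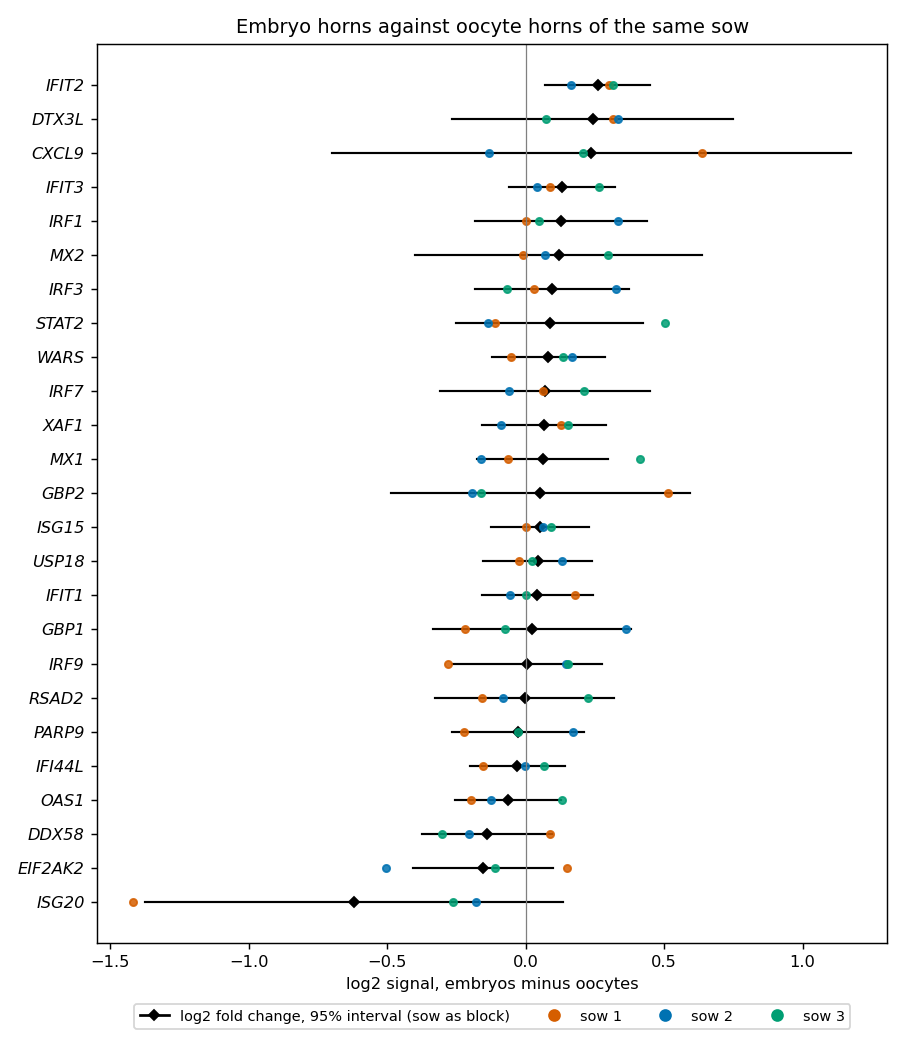
Normalized log2 signal of the embryo horn minus that of the oocyte horn of the same sow for the 25 interferon-stimulated genes, with the 3 sows as coloured points and the log2 fold change with its 95% interval (sow as a block) as a black diamond and line. Only the interval of IFIT2, from 0.07 to 0.45, leaves out 0, and it is not adjusted for the number of probe sets.

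The 5 transcription factors of the list had no called difference between sows or between horns. The STAT2 signal was 107, 84.9 and 119 in the embryo horns of sows 1, 2 and 3, against 114, 94.2 and 83.5 in their oocyte horns. STAT2 is a subunit of the transcription complex formed after type I interferon. No sow was highest for STAT2 in both groups, and embryo and oocyte horns overlapped. The log2 fold change was 0.09 (unadjusted p = 0.666 from limma without the block and 0.582 with it). Signals of IRF9 were 145, 158 and 122 with embryos, against 174, 143 and 109.5 with oocytes in sows 1, 2 and 3. IRF9, the subunit of that complex that binds DNA, was lowest in sow 3 in both groups (adjusted p = 0.115 for the sow), and its groups overlapped as well. With embryos, IRF1 had signals of 72, 99.7 and 80.8 in sows 1, 2 and 3, against 70.9, 80.2 and 77.3 with oocytes. IRF1, which carries much of the response to interferon gamma, had its highest signal in sow 2 in both groups.

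The IRF3 signal was 112, 135 and 102 in the embryo horns of sows 1, 2 and 3, against 108, 108.5 and 106 in their oocyte horns. IRF3, the factor that starts the interferon response after virus sensing, varied within a narrow range. Signals of IRF7 were 49.6, 61.1 and 49.7 with embryos, against 46.6, 65.3 and 42.3 with oocytes in sows 1, 2 and 3. IRF7, which amplifies that response, was highest in sow 2 in both groups. None of the 5 factors passed the test of the sow, with adjusted p values of 0.115 to 0.600. By their brightest probe sets, the log2 fold changes between embryo and oocyte horns lay between 0.01 (IRF9) and 0.13 (IRF1). None of them was past the threshold, and in each of the 5 the groups overlapped.

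Genes that respond chiefly to interferon gamma were also read. The WARS signal was 292, 223 and 222 in the embryo horns of sows 1, 2 and 3, against 301, 198 and 203 in their oocyte horns. WARS, the tryptophanyl-tRNA synthetase, was highest in sow 1 in both groups and passed the test of the sow (1.45-fold, adjusted p = 0.0169). Its difference between horns was 0.08 (unadjusted p = 0.705 from limma without the block and 0.392 with it). The other 2 WARS probe sets did not pass the test of the sow (adjusted p = 0.212 and 0.178). Signals of GBP1 were 63, 86.6 and 67.1 with embryos, against 72.2, 68.5 and 69.9 with oocytes in sows 1, 2 and 3. GBP1, a guanylate-binding protein that attacks the vacuoles of intracellular microbes, had no sow that was highest in both groups (adjusted p = 0.650). Its brightest probe set had a log2 fold change of 0.02. The other 2 GBP1 probe sets had -0.21 and -0.14 (unadjusted p = 0.632 and 0.539 from limma). With embryos, GBP2 had signals of 41.4, 41.6 and 24.5 in sows 1, 2 and 3, against 28.2, 49.1 and 26.8 with oocytes. GBP2, its neighbour in the genome, was highest in sow 2 in both groups, by little with embryos (unadjusted p = 0.0407, adjusted p = 0.177 for the sow). The groups overlapped in all 3 genes. CXCL9, the chemokine that draws T cells after interferon gamma, lay below the median signal, at 12.6 to 16.5 with embryos and 10.2 to 14.5 with oocytes.

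The remaining members were XAF1, PARP9, DTX3L, IFI44L and ISG20. The XAF1 signal was 195.5, 192 and 163 in the embryo horns of sows 1, 2 and 3, against 177, 204 and 147 in their oocyte horns. XAF1 antagonises an inhibitor of apoptosis, and here sow 3 was lowest in both groups. The test of the sow did not pass for XAF1 after adjustment (unadjusted p = 0.0331, adjusted p = 0.156). Signals of PARP9 were 191, 183 and 167 with embryos, against 220.5, 162 and 170.2 with oocytes in sows 1, 2 and 3. With embryos, DTX3L had signals of 37.7, 40.7 and 29.6 in sows 1, 2 and 3, against 29.4, 33.3 and 27.5 with oocytes. PARP9 and DTX3L, which form a complex that modifies chromatin and viral proteins and are adjacent in the pig genome, did not pass the test of the sow (adjusted p = 0.246 and 0.572). DTX3L was higher with embryos in each of the 3 sows, by 0.24 on the log2 scale, with a 95% interval of -0.26 to 0.75 with the block.

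The IFI44L signal was 599.5, 781.5 and 656 in the embryo horns of sows 1, 2 and 3, against 662, 778 and 634 in their oocyte horns. IFI44L, a feedback regulator of the antiviral response, was highest in sow 2 in both groups, and its difference between horns was -0.03 (95% interval -0.20 to 0.14 with the block). A dimmer IFI44L probe set had another order, with sow 3 lowest in both groups, and passed the test of the sow (adjusted p = 0.0402). The dimmest had 6.5, 23.2 and 32.1 with embryos, against 14.2, 17.4 and 24.1 with oocytes. Its order was the reverse, with sow 1 lowest and sow 3 highest in both groups, and it did not pass (adjusted p = 0.119). ISG20 is an exonuclease that degrades viral RNA. Signals of ISG20 were 13.8, 21 and 22.4 with embryos, against 35.5, 24.7 and 26.1 with oocytes in sows 1, 2 and 3. Each embryo horn was below each oocyte horn, the sow with the largest gap was sow 1, and no signal exceeded the median of its array. The log2 fold change was -0.62 (SE 0.34, unadjusted p = 0.106 from limma), the largest of the members in size. Blocked on the sow, its 95% interval ran from -1.37 to 0.13 (unadjusted p = 0.0965).

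The pathway upstream was read from lists of other genes. Of the interferons themselves, IFNA1, IFNB1 and IFNG were named by the array, and all 3 lay below the median signal. The IFNG signal was 2.3, 8.7 and 1.8 in the embryo horns of sows 1, 2 and 3, against 4.9, 10.6 and 8.4 in their oocyte horns. Signals of IFNA1 were 25.3, 18.2 and 22.1 with embryos, against 32.3, 23.6 and 26.1 with oocytes in sows 1, 2 and 3. IFNB1 was at 0.3 to 0.7 with embryos and 0.3 to 3.4 with oocytes. Each of the 3 had a negative log2 fold change (-0.34 to -1.22), none of which passed (unadjusted p = 0.151 to 0.576 from limma), and 0 of 3 passed the test of the sow.

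Of 12 receptor and JAK-STAT genes, 0 passed between embryo and oocyte horns and 1 passed the test of the sow (8.33%, against 11.3% of all probe sets), so the list did not stand above the background. That gene was IFNAR1, a chain of the receptor for type I interferon. The IFNAR1 signal was 340.1, 200.2 and 221 in the embryo horns of sows 1, 2 and 3, against 335, 250.5 and 239 in their oocyte horns. Both horns of sow 1 were above the other 4 (adjusted p = 0.00937). Signals of IFNGR1 were 89.3, 98 and 91.3 with embryos, against 72, 67.3 and 75.5 with oocytes in sows 1, 2 and 3. IFNGR1 is the ligand-binding chain of the interferon gamma receptor, and each embryo horn was above each oocyte horn. The log2 fold change was 0.37 (95% interval 0.07 to 0.68 with the block, unadjusted p = 0.050 without it and 0.0221 with it). With embryos, PTPN2 had signals of 174.5, 179 and 174 in sows 1, 2 and 3, against 235.5, 192 and 206 with oocytes. PTPN2, a phosphatase that switches JAK and STAT proteins off, was lower in each embryo horn than in any oocyte horn (log2 fold change -0.27, unadjusted p = 0.0888 without the block and 0.0269 with it). Neither IFNGR1 nor PTPN2 passed after adjustment. These 2 of 12 genes (16.7%) were the ones without overlap of the groups, against 8.01% of all probe sets, and the ones with an unadjusted p under 0.05 with the block, against 8.70%.

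Of 9 sensors and adaptors, 0 passed between horns and 1 passed the test of the sow (11.1%, against 11.3% of all probe sets), IRF2, which competes with IRF1 at the same promoters. The IRF2 signal was 291, 437 and 299 in the embryo horns of sows 1, 2 and 3, against 256, 359.8 and 265 in their oocyte horns. Sow 2 was highest in both groups (adjusted p = 0.0145), and each embryo horn was above the oocyte horn of its sow (log2 fold change 0.21, unadjusted p = 0.310 without the block and 0.0297 with it). IRF2 was the 1 gene of these 9 (11.1%) with an unadjusted p under 0.05 with the block, against 8.7% of all probe sets. Of 9 antigen-processing genes that interferon induces, 0 passed between horns and 1 passed the test of the sow (11.1%), PSMB8, a subunit of the immunoproteasome. Signals of PSMB8 were 106, 300.2 and 125 with embryos, against 129, 315 and 112 with oocytes in sows 1, 2 and 3. Both horns of sow 2 were far above the other 4 (adjusted p = 3.42e-04). Sow 1, highest for ISG15, OAS1 and RSAD2, was not highest here. With embryos, CALR had signals of 103, 85.1 and 125 in sows 1, 2 and 3, against 59.8, 78.2 and 102 with oocytes. CALR, a chaperone that helps to load antigen, was higher with embryos in each sow (log2 fold change 0.40, unadjusted p = 0.130 without the block and 0.0252 with it), and its groups overlapped. CALR was the 1 antigen-processing gene of 9 (11.1%) with an unadjusted p under 0.05 with the block, against 8.7% of all probe sets. Groups did not overlap in 1 of the 9, PSME2 (11.1%, against 8.01% of all probe sets), with a log2 fold change of 0.08.

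Several other measures moved with the sow. The 5'/3' ratio of GAPDH was highest in sow 1 in both groups. Over all probe sets 36% were highest in sow 1 and 33.9% in sow 2, and 11.3% passed the test of the sow. Stromal markers were highest in sow 1 in 6 of 6 genes, 5 of which passed that test, with a summed signal of 6842, 3398 and 5145 with embryos and 7324, 3499 and 4924 with oocytes. In contrast to the interferon-stimulated genes, whose sums were 7946, 5290 and 4387 with embryos and 8048, 5384.5 and 4059.7 with oocytes, the stromal sum was lowest in sow 2 and not in sow 3. Smooth muscle markers (4 of 4, 2 past the test) and endothelial markers (4 of 4, 0 past the test) were also highest in sow 1. Leukocyte markers were highest in sow 2 in 12 of 14 genes, with 1 past the test of the sow and sums of 368, 464 and 357 with embryos and 342, 454 and 273 with oocytes. Of 8 epithelial markers 3 passed, with different orders. KRT8 (adjusted p = 0.00163) and CDH1 (adjusted p = 0.0112) were lowest in sow 1, and CLDN3 (adjusted p = 0.00909) was highest there. Among those that did not pass, CLDN4, EPCAM, KRT18 and KRT19 were also lowest in sow 1, and MUC1 was highest there. The epithelial sum was lowest in sow 1 in both groups, at 7939, 10028 and 10605 with embryos and 8167, 10361 and 10003 with oocytes. The part of cell content and RNA quality in the difference between sows was not tested. With the log2 5'/3' ratio in the model 8 of the 11 members still passed the test of the sow, and EIF2AK2, IFIT1 and WARS did not. That model has almost as many terms as arrays, and the ratio was highest in sow 1 and lowest in sow 2 in both groups. It therefore cannot tell RNA quality from the sow. The sow and anything its 2 horns shared in handling cannot be told apart, since no sow was sampled more than once per horn.

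**Figure D4:**
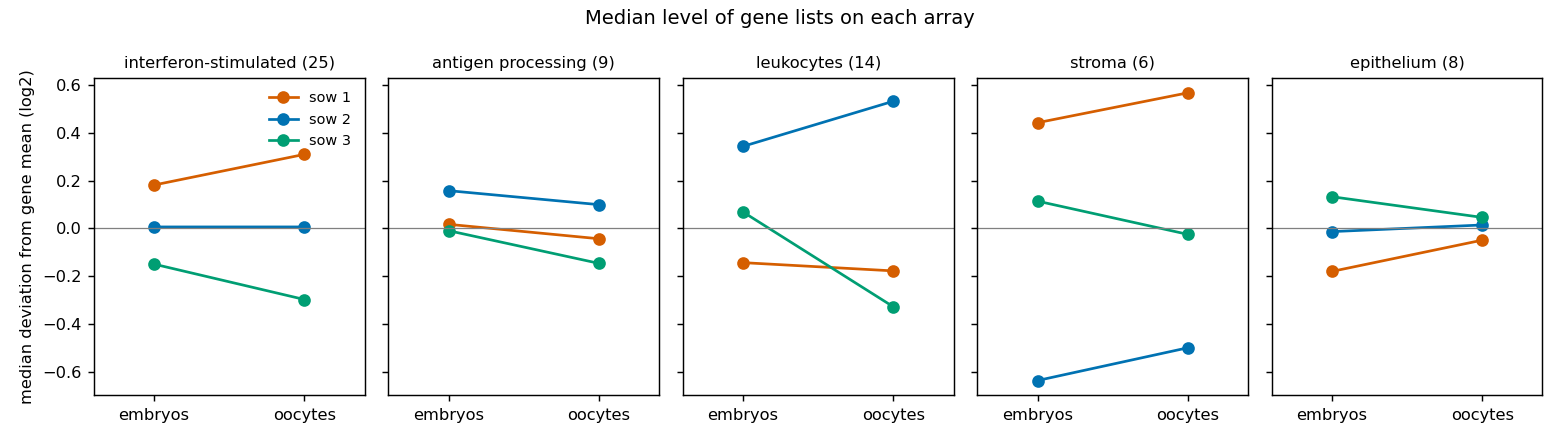
Median over the genes of a list of the deviation of the normalized log2 signal from the gene's mean, per array, for interferon-stimulated genes (25), antigen-processing genes (9) and markers of leukocytes (14), stroma (6) and epithelium (8), with embryo horns on the left, oocyte horns on the right and a line for each sow. Interferon-stimulated genes have sow 1 on top and sow 3 at the bottom, leukocyte markers have sow 2 on top, and stromal markers have sow 1 on top and sow 2 at the bottom.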

How the data were processed

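Epithelial scrapings from both uterine horns of 3 sows at day 6 were measured on 6 Affymetrix porcine arrays. Each probe set has an intensity on a linear scale, which the authors made with Microarray Suite (MAS5 5.1 in the submitters' processing notes) and deposited without the Lowess step of their methods. The mean of each array without the highest and lowest 2% of signals was 100, so the arrays were already scaled to each other, and detection calls were not used here. Arrays have no sequencing depth, and 3 arrays per group limit the precision.

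Log2 values of the signals, with 0.1 as the floor, were normalized by cyclic loess. After removal of 124 control probe sets, the 23999 others were fitted without a filter in limma 3.58.1 (R 4.3.3), with the group as the only term, variances moderated along a trend with mean signal, and p values adjusted over all of them (Benjamini-Hochberg, threshold 0.05). Differences between sows were the F test of the sow in a model of sow and group. A gene's brightest probe set by mean normalized log2 signal stands for it. The array annotation gave the symbols, and all 25 matched a current pig gene table without a change. The fits were also run on simulated data, in which only the probe sets given a sow change differed between sows. This does not test the fit without a sow term under the differences between sows seen here. Python 3.11.15 with matplotlib 3.10.9 drew the plots.

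Arrays carry the numbers 1 to 3 within a group, and both horns of each sow were sampled. Since per-animal ratios in the methods match arrays of equal number, equal numbers were read as the same sow. Same-numbered arrays deviated together from the means of their groups (r = 0.207, 0.173 and 0.100). The sow as a block was an alternative fit, and it added 1 unadjusted call among the members and 0 adjusted calls.

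The members, the marker and pathway lists and the tests were chosen with earlier results of these data known. Values on each array are given for members above the median signal of all probe sets and for those with an unadjusted p under 0.05 in any of the 3 tests, and CXCL9 and ISG20 fall outside that rule. CXCL9 is given by its range, and ISG20 was added after its values were seen. Members are described by counts and medians beside those of all probe sets. Alternatives were the block, no normalization, quantile normalization, equal medians, an offset of 32, a filter at the median signal, variances without a trend, the 5'/3' ratio as a covariate (for the test of the sow this was chosen after seeing the data), the mean over a gene's probe sets, and leaving out each array.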

Additional observations from a re-analysis of the deposited data

How the results depend on the processing

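Between embryo and oocyte horns 0 members and 0 probe sets passed after adjustment in every alternative that gave p values. The mean over a gene's probe sets gave log2 fold changes only. Members of low signal, such as ISG20 and CXCL9, had wide intervals. The replicate block changed no call after adjustment. At an unadjusted p under 0.05 it raised the count over all probe sets to 2088, against 692 without it, and added IFIT2 among the members' brightest probe sets. The median log2 fold change of the members, 0.05, was 0.25 with the 5'/3' ratio as a covariate, where 9 members changed sign. It was lowest without the oocyte array of sow 3 and highest without that of sow 1, running between -0.080 and 0.20 when 1 array was left out. It was negative also without the embryo array of sow 1, at -0.024. The fits that leave out 1 array have no term for the sow, so these shifts cannot be told apart from the differences between sows. In the other alternatives it was 0.03 to 0.07. In the test of the sow, 11 members passed in the normalizations and filters tried (with equal medians IFI44L in place of WARS), and 8 to 11 passed when 1 array was left out, 8 without the embryo array of sow 1. With no variance trend 0 members passed, with a smallest adjusted p of 0.266 among them, and the cause was not tested. With the 5'/3' covariate 8 members passed, among 943 probe sets in all, against 2707 without it. That fit has almost as many terms as arrays, so a lost call cannot be read as an effect of the ratio.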

Other observations

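A further 3 genes induced by interferon are named by the array but were not among the 43 listed, and they were added after the values had been seen. ISG12(A), a mitochondrial interferon-induced protein, had signals of 5380.2, 4621 and 4439.7 in the embryo horns of sows 1, 2 and 3, against 5309.5, 4776 and 4426 in their oocyte horns. Sow 1 was highest and sow 3 lowest in both groups, as for ISG15, but the range was narrow (log2 fold change 0.00, and adjusted p = 0.109 for the sow from limma).

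IFI35, which binds other interferon-induced proteins, had signals of 203, 208 and 141 with embryos, against 193, 226 and 160.0 with oocytes. Sow 3 was lowest in both groups (adjusted p = 0.0343 for the sow), and the log2 fold change was -0.08. IFI30, a lysosomal reductase that serves antigen presentation, had signals of 95, 104 and 103 with embryos, against 120.5, 124 and 91.7 with oocytes. Its groups overlapped, with a log2 fold change of -0.15.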
